A study of Mus musculus with 24 samples.

Results

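The 44 genes followed here encode the proteins that copy chromosomal DNA: the origin recognition complex, the licensing factors, the MCM2-7 helicase and its activators, the sliding clamp and its loader, primase and the replicative polymerases, the single-strand binding protein, the enzymes that join Okazaki fragments, and enzymes that supply deoxynucleotides. They were chosen by name for their role, as 44 of the 53379 genes in the tables, and all 44 were matched to a gene and passed the filter on low counts. RNA was sequenced from mouse E14 (E14Tg2a.IV) embryonic stem cells, an established line, in 5 groups of 2 libraries. One group was undifferentiated wild-type (WT) stem cells, called day 0. The other 4 were day 4 embryoid bodies made from WT, Smad3-/-, Smad2-/- and Smad2/3DKO cells, the last lacking both genes. Embryoid bodies are floating aggregates in which stem cells differentiate after withdrawal of the cytokine LIF. Smad2 and Smad3 are the transcription factors that carry the Nodal and Activin signal to the nucleus. The labels do not say that replicates came from separate cultures. All p-values therefore reflect only how far these libraries differ, a spread that may be technical. The names of the deposited tables carry 1 line number for both libraries of each knockout, so each genotype may rest on 1 clone.

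A replication origin is prepared in G1, when the origin recognition complex, Cdc6 and Cdt1 load MCM2-7 onto DNA as an inactive ring. In S phase, Cdc45, the GINS complex and Mcm10 turn the ring into a moving helicase, and DNA polymerases held on the template by the PCNA clamp copy both strands. Many of these genes are transcribed under E2F factors at the G1/S transition, and mouse embryonic stem cells are known for a short G1 phase and a large share of cells in S phase.

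The promoters of Mcm3, Mcm5, Mcm6, Mcm7 and Cdc6 are shown as examples of helicase and licensing genes whose windows hold letters that E2F factors are known to bind. The windows are RefSeq's, 250 bases before to 50 after the annotated start, on build GRCm38.p6, read 5′ to 3′ on the gene's strand. Capitals mark every match to TTTCCCGC, TTTGGCGC, TTTCGCGC or TTTGCCGC on either strand, and matches that overlap run together. The windows are chr1:20820263-20820562 on the minus strand for Mcm3, chr8:75109259-75109558 on the plus strand for Mcm5, chr1:128359656-128359955 on the minus strand for Mcm6, chr5:138171834-138172133 on the minus strand for Mcm7 and chr11:98907901-98908200 on the plus strand for Cdc6.
Mcm3: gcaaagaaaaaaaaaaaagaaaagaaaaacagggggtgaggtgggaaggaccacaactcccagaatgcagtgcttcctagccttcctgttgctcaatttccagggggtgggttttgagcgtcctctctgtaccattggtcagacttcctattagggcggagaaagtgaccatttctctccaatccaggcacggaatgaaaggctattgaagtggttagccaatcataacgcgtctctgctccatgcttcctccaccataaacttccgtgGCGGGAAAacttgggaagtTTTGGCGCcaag
Mcm5: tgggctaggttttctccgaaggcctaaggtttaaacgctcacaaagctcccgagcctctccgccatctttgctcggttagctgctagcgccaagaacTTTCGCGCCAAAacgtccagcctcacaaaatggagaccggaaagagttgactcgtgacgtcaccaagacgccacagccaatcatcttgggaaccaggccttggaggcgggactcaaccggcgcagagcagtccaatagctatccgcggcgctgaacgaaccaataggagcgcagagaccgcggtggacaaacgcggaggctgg
Mcm6: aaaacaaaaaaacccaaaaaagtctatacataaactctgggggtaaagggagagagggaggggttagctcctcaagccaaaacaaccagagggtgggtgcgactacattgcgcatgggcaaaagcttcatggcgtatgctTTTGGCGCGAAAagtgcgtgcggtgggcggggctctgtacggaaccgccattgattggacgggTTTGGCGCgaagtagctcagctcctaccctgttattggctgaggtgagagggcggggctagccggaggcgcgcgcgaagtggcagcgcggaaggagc
Mcm7: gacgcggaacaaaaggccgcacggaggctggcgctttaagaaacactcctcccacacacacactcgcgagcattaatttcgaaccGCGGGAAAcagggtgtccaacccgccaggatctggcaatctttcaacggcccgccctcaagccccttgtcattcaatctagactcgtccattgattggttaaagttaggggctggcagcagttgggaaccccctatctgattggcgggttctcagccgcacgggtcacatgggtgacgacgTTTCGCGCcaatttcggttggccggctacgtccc
Cdc6: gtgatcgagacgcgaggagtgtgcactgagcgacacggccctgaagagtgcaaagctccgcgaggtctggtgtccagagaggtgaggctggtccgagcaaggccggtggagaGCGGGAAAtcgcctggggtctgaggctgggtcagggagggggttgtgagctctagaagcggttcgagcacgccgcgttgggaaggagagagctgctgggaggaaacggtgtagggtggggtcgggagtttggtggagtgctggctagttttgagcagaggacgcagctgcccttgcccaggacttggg
Of the 44 genes, 36 had a window, and 6 of these had several (44 windows in all). Mcm7 has a further window with no match, which is not shown. No window was read for Gins1, Gins2, Gins4, Gmnn, Mcm4, Pole, Prim2 and Rfc2. An E2F match stood in at least 1 window of 14 of the 36 (38.9%), against 704 of 27025 genes whose windows were read (2.6%). Windows on the chromosome that carries Smad2 were left out, and the motif shares of all genes given here are of these 27025. In the shorter window, from 100 bases before the start, it stood in 11 of 36 (30.6%) against 1.5% of all genes. Mcm3, Mcm5, Mcm6, Mcm7 and Rfc3 held at least 2 matches. The CCAAT box (CCAAT, either strand), which binds NF-Y, stood in 23 of 36 (63.9%) against 41.1% of all genes. The CHR letters TTTGAA and TTCGAA, known from genes of later cell-cycle phases, stood in 7 of 36 (19.4%) against 21.7%. A match is a description of the sequence and not evidence of binding.

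The tables held 35733249 to 53672980 expected counts per library, and replicates correlated at Pearson's r of 0.981 to 0.994 across genes. The label check was partial. Smad2 RNA stood at 49.9 and 38.3 CPM (counts divided by the scaled library total) in WT day 4, at 19.2 and 20.4 in the Smad2 knockout and at 22.2 and 22.7 in the double knockout. Smad3 RNA was no lower in the Smad3 knockout (49.7 and 48.7 CPM) than in WT day 4 (42.0 and 44.9), so RNA level does not check that label. Day 0 libraries had the naive pluripotency markers (1936 and 2050 summed CPM over 10 genes, against 262 and 297 in WT day 4). They had little endoderm RNA (3.56 and 4.82 summed CPM over 8 genes, with Ttr at 0 in both libraries and Foxa2 and Afp at 0 in replicate 1). Of the 44 genes, 16 overlap another annotated gene, 15 of them at least 1 on the opposite strand (Mcm7, Tk1, Fen1, Gins2, Lig1, Orc4, Orc6, Pole and Rfc2 among them). Their values are less certain, because no source used here states the strand of counting. Pcna and Tyms have annotated pseudogenes that can share their reads.

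On the TMM-scaled CPM scale, day 0 cells had the highest summed level of replication gene RNA. The group mean CPM was highest at day 0 for 34 of the 44 genes, in WT day 4 for 8 and in the Smad2 knockout for 2. It was lowest in the Smad3 knockout for 20 genes, in the double knockout for 18, in the Smad2 knockout for 5 and at day 0 for 1. The 44 genes summed to 8144 and 8135 CPM at day 0 and to 5409 and 5870 in WT day 4. The sums were 4966 and 5772 in the Smad2 knockout, 4038 and 4135 in the Smad3 knockout, and 3833 and 3968 in the double knockout. The ranges of WT day 4 and the Smad2 knockout overlapped, and those of the other groups did not overlap with them. On the deposited TPM scale, which divides counts by transcript length, the order differed. There the 44 genes summed to 3812 and 4209 at day 0 and to 4121 and 3952 in WT day 4, with overlap. The TPM sum was lowest in the Smad2 knockout (2918 and 2821), below the Smad3 knockout (3142 and 3042) and the double knockout (3087 and 3301). In such bulk RNA, fewer cells in S phase and less replication RNA per cell cannot be told apart.

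**Figure D1:**
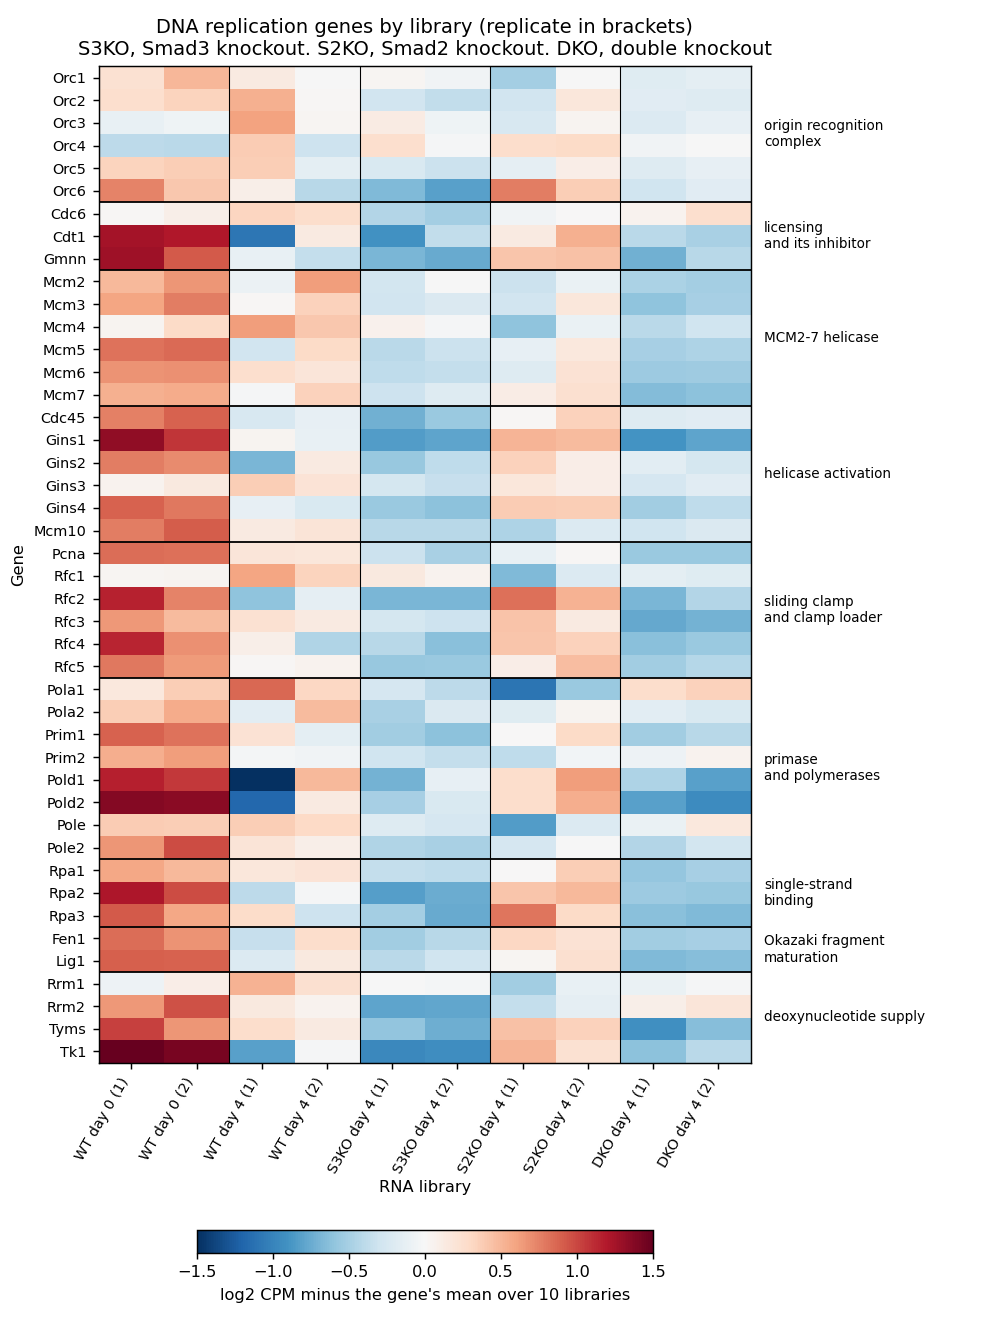
Level of each of the 44 genes (rows, grouped by role) in each of 10 RNA libraries (columns), as log2 CPM minus the gene's mean over libraries. Day 0 columns are mostly red, and the columns of the Smad3 knockout and the double knockout are mostly blue.

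From day 0 to day 4 in WT cells, 25 of the 44 genes fell and none rose, where 23.2% of the 19470 genes tested fell and 28.9% rose (edgeR quasi-likelihood F test, Benjamini-Hochberg adjusted p under 0.05). The genes' median log2 difference was -0.66, against 0.10 for all genes. Both day 4 libraries lay below both day 0 libraries for 32 genes (35.7% of all genes) and above them for 7 (40.6% of all genes).

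Cdt1 and the licensing inhibitor gene Gmnn were among those that fell most in the fit without the length and GC offset described below. Gmnn encodes geminin, the inhibitor that keeps Cdt1 from relicensing origins, and stood at 202 and 158 CPM at day 0 and at 77.3 and 65.4 CPM in WT day 4. The day 4 libraries were both low, with no overlap, and the log2 difference was -1.34 ± 0.18 (SE, edgeR adjusted p = 0.000479). Cdt1, which loads MCM2-7, went from 296 and 287 CPM to 58.7 and 137 CPM, a log2 difference of -1.58 ± 0.35 (edgeR adjusted p = 0.00528). Cdc6, its partner in loading, had 52.2 and 55.0 CPM at day 0 and 64.3 and 61.8 CPM in WT day 4, and did not pass the test (log2 difference 0.23 ± 0.15). In the origin recognition complex, 1 of 6 genes fell (16.7%), below the 23.2% of all genes. Orc6, the smallest subunit, had 129 and 102 CPM at day 0 and 81.9 and 57.9 CPM at day 4. Its log2 difference was -0.72 ± 0.22 (edgeR adjusted p = 0.0217). Orc1 (-0.30) and Orc5 (-0.22) lay below 0 and did not pass. Orc2 (0.00), Orc3 (0.43) and Orc4 (0.48) had log2 differences at or above 0. The calls depended on the fit. With the offset described below, Orc1 (-0.78), Orc2 (-0.66) and Orc5 (-0.66) were called lower and Orc4 (0.47) higher, and Orc6 was not called.

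Of the MCM2-7 genes, Mcm5 and Mcm6 fell, with log2 differences of -0.80 ± 0.20 and -0.46 ± 0.17. Mcm5 had 447 and 458 CPM at day 0 and 209 and 311 CPM in WT day 4. Mcm4 lay the other way, at 246 and 291 CPM against 370 and 316 CPM, and did not pass the test. Of the 6 genes for helicase activation, 5 fell, all but Gins3. Gins1, a subunit of the GINS ring, went from 75.5 and 63.1 CPM to 30.9 and 27.7 CPM, with no overlap (log2 difference -1.24 ± 0.16, edgeR adjusted p = 0.00039). Gins4 (-1.01), Cdc45 (-1.0), Gins2 (-0.96) and Mcm10 (-0.67) also fell.

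The clamp gene Pcna fell from 342 and 339 CPM to 217 and 216 CPM (log2 difference -0.65 ± 0.15, edgeR adjusted p = 0.00532). Its loader subunits Rfc2 (-1.31), Rfc4 (-1.09) and Rfc5 (-0.68) fell with it. Rfc1 (0.43) and Rfc3 (-0.39) did not pass the test, and in the fit with a length and GC offset described below Rfc1 turned to -0.55 and was called lower. Of 8 primase and polymerase genes, Prim1, Prim2, Pole2 and Pold2 fell. Pold2, an accessory subunit of polymerase delta, had 250 and 245 CPM at day 0 and 42.2 and 105 CPM in WT day 4 (log2 difference -1.75 ± 0.34, edgeR adjusted p = 0.00301). Pold1, the catalytic subunit, had 256 and 238 CPM against 40.7 and 160 CPM. Its log2 difference of -1.30 ± 0.49 missed the threshold at an edgeR adjusted p of 0.0533, and its day 4 libraries stood far apart.

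Rpa2 and Rpa3 of the single-strand binding complex fell (-1.30 ± 0.17 and -0.75 ± 0.25), and so did Fen1 (-0.77), which trims Okazaki fragments, and Lig1 (-0.91), which seals them. Tk1, the thymidine kinase of the salvage pathway, had 105 and 93.8 CPM at day 0 and 19.8 and 34.5 CPM in WT day 4. The log2 difference of -1.87 ± 0.25 was the largest of the 44 genes in the fit without the offset (edgeR adjusted p = 0.000441). Tyms (-0.66), which makes thymidylate, and Rrm2 (-0.71), the regulatory subunit of ribonucleotide reductase, fell too. Rrm1, the catalytic subunit of that enzyme, had a log2 difference of 0.38 ± 0.18 and did not pass.

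The count of genes that fell depended on the scale. Scaling by library totals moved the median of all genes to 0.38 and gave 13 genes lower and 7 higher. On the deposited TPM scale the median of all genes was 0.63, with 9 genes lower and 11 higher, against 10.4% and 49.5% of all genes. The members' medians on these scales, -0.38 and 0.10, lay below those of all genes. In a fit with an offset for transcript length and GC content, 34 genes were called lower and 1, Orc4, higher, against 24.9% and 24.4% of all genes, and 22 of the 25 were among the 34. Many sizes moved with it. On the log2 scale Tk1 went to -1.07, Cdt1 to -0.96, Pold2 to -0.71, Rfc4 to -0.65, Gins1 to -0.64, Gmnn to -0.58, Rfc2 to -0.45 and Gins4 to -0.43, all still called. Orc6 (-0.28), Rpa3 (-0.32) and Tyms (0.14) were no longer called. Several genes with longer transcripts went the other way. Pola1 had the largest offset value, -1.14 against 0.35 without it, Mcm6 went to -0.93, Orc2 to -0.66 and Mcm4 to -0.53, all called lower. Cdc6 (-0.14) and Rrm1 (-0.10) turned below 0 and were not called. Without replicate 2 of WT day 4, 5 genes were called higher, and without either Smad2 knockout library 1 was.

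In the double knockout, 12 of the 44 genes were lower than in WT day 4 and none was higher, where 12.3% of all genes were lower and 10.8% were higher. The median log2 difference was -0.46 over the 44 genes and -0.05 over all genes, and 41 of the 44 values lay below 0. Both double knockout libraries lay below both WT day 4 libraries for 31 genes (31% of all genes) and above them for 0 genes (28.7% of all genes). Of the 6 helicase subunit genes, 5 were lower. All 6 also lay below WT day 4 in the Smad3 knockout, with a median of -0.44 and none called without the offset. Between the double and the Smad3 knockout none was called without the offset, and with it Mcm2 (-0.39) and Mcm7 (-0.41) were lower. The TPM sum of the 6 genes was lowest in the Smad2 knockout (645 ± 28, SD, n = 2). It was 769 ± 27 in the double knockout, 883 ± 17 in the Smad3 knockout and 1158 ± 50 in WT day 4.

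The levels by library were as follows. Mcm2 had 241 and 395 CPM in WT day 4 and 184 and 181 CPM in the double knockout. Mcm3 had 322 and 403 CPM against 209 and 225 CPM. Mcm4 had 370 and 316 CPM against 181 and 195 CPM. For each of these subunits both double knockout libraries were low and the groups did not overlap. Mcm5 had 209 and 311 CPM against 180 and 184 CPM. Mcm6 had 373 and 353 CPM against 215 and 217 CPM. Mcm7 had 410 and 531 CPM against 264 and 272 CPM. These groups did not overlap either, and in each case the knockout replicates lay closer together than the WT replicates.

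The log2 differences were -0.80 ± 0.23 for Mcm2, -0.74 ± 0.20 for Mcm3 and -0.87 ± 0.20 for Mcm4, with edgeR adjusted p of 0.0369, 0.0264 and 0.013. They were -0.75 ± 0.17 for Mcm6 and -0.81 ± 0.17 for Mcm7, with edgeR adjusted p of 0.0129 and 0.00939. Mcm5, at -0.51 ± 0.20, did not pass (edgeR adjusted p = 0.103).

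**Figure D2:**
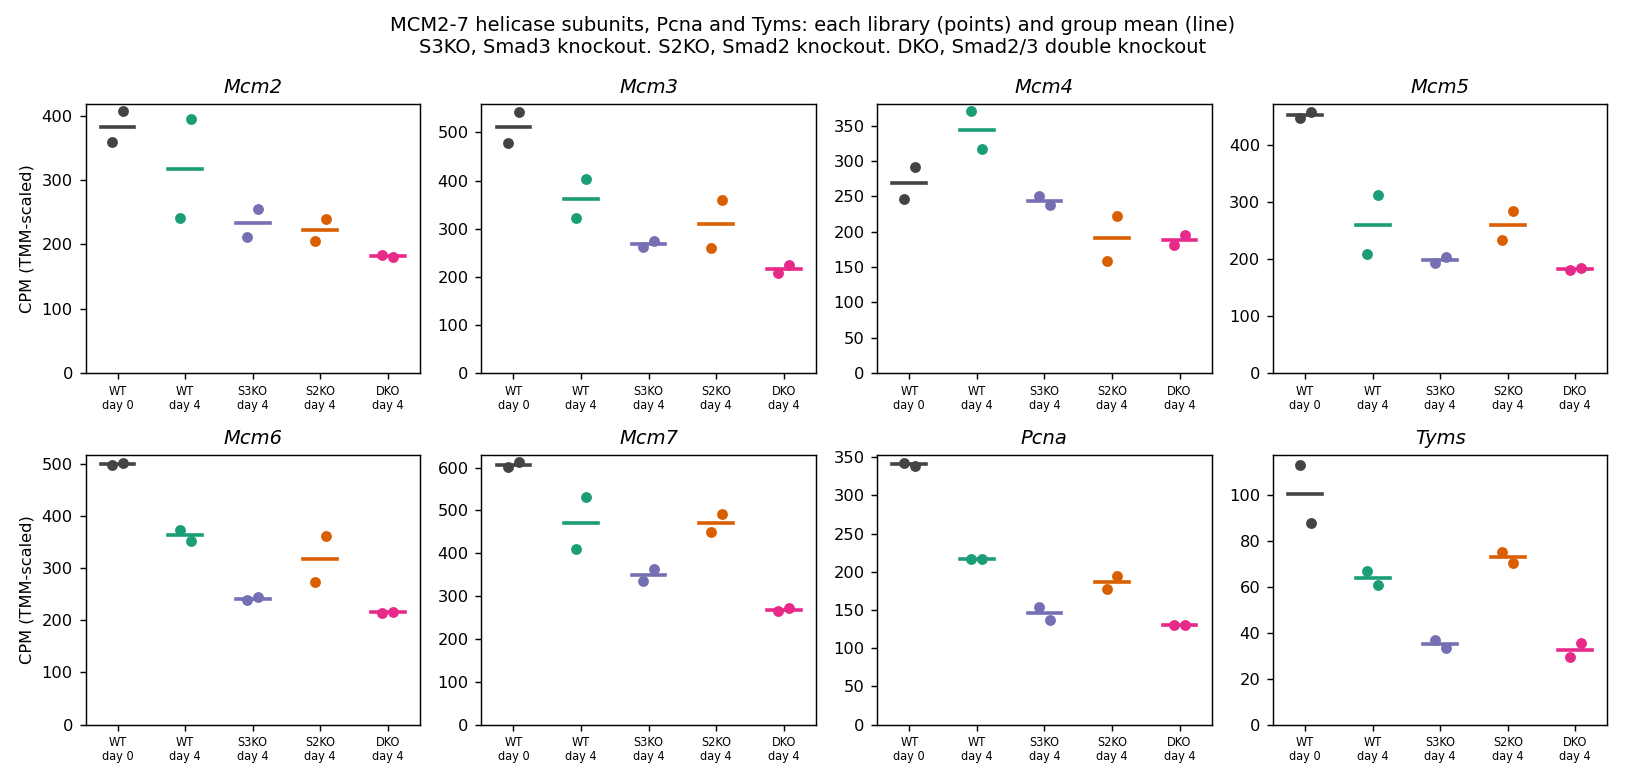
CPM of the MCM2-7 subunit genes, Pcna and Tyms in each library (points) with the group mean (line), by group on the horizontal axis. In each panel both double knockout points lie below both WT day 4 points.

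Outside the helicase, Gins1, Pcna, Rfc1, Rfc3, Rpa1, Lig1 and Tyms were lower. Pcna had 217 and 216 CPM in WT day 4 and 130 and 131 CPM in the double knockout, with no overlap (log2 difference -0.73 ± 0.15, edgeR adjusted p = 0.00694). Rfc3, a clamp loader subunit, had 52.2 and 48.8 CPM against 26.1 and 27.2 CPM (log2 difference -0.92 ± 0.16, edgeR adjusted p = 0.004). Tyms had 66.8 and 60.9 CPM against 29.4 and 35.7 CPM, the largest difference among the 44 genes in this comparison (log2 difference -0.97 ± 0.18, edgeR adjusted p = 0.00498). None of the 6 origin recognition genes, 3 licensing genes and 8 primase and polymerase genes passed the test without the offset. Cdc45 (0.00), Gins2 (0.01), Prim2 (0.04) and Rrm2 (0.04) had log2 differences near 0.

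The offset fit called 20 genes lower, the 12 among them, and none higher, against 17.8% and 19.5% of all genes. The 8 others were Mcm5 (-0.60), Gins3, Mcm10, Rfc5, Pola2 (-0.43), Pold2 (-0.56), Rpa2 and Fen1. The compared groups alone gave 3 lower. The TPM scale gave 5 lower and 0 higher, against 7.13% and 14.3% of all genes. Leaving out replicate 1 of the double knockout left 1 gene lower, and leaving out its replicate 2 left 2. The median remained between -0.48 and -0.39 when any 1 library was left out. Trophoblast markers moved with this comparison: 9 of 10 were higher in the double knockout, with summed levels of 2238 and 2728 CPM against 229 and 415 CPM in WT day 4 and none at 0. Primed epiblast markers were lower for 5 of 5 genes, with 297 and 293 summed CPM against 1859 and 2026. Primitive streak and mesoderm markers were lower for 5 of 6, with 8.26 and 6.56 summed CPM against 367 and 384, and Mesp1 at 0 in replicate 2 of the double knockout. Endoderm markers were lower for 7 of 8 (159.6 and 103.5 summed CPM against 713 and 639). Naive pluripotency markers were higher for 4 of 10 (596 and 466 against 262 and 297). Core pluripotency markers were lower for 3 of 5 (659 and 527 against 1100 and 1585). The part of this difference in cell types in the replication gene results was not tested.

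In the Smad3 knockout, no replication gene passed the test against WT day 4, where 0.123% of all genes were lower and 0.431% were higher. At an unadjusted p under 0.05, 26 were lower and 0 were higher (edgeR), where 9.31% of all genes were lower and 7.86% were higher. The values leaned one way nonetheless: 42 of 44 log2 differences lay below 0, with a median of -0.48 against -0.04 for all genes, and the exceptions were Orc4 (0.05) and Pold2 (0.02). Both Smad3 knockout libraries lay below both WT day 4 libraries for 35 genes (25.9% of all genes) and above them for 0 (21.7% of all genes).

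The genes nearest the threshold were Rrm2, Cdc6, Tyms and Gins1. Rrm2 had 162 and 152 CPM in WT day 4 and 84.7 and 85.3 CPM in the Smad3 knockout. Cdc6 had 64.3 and 61.8 CPM against 38.1 and 36.4 CPM. Tyms had 66.8 and 60.9 CPM against 36.8 and 33.6 CPM. The groups did not overlap for any of these genes, and the knockout libraries were the low ones. The log2 differences were -0.88 ± 0.16, -0.76 ± 0.15 and -0.86 ± 0.18, with edgeR adjusted p of 0.0566, 0.0641 and 0.0728. Gins1 had 30.9 and 27.7 CPM in WT day 4 and 16.8 and 17.4 CPM in the Smad3 knockout, a log2 difference of -0.78 ± 0.16 (edgeR adjusted p = 0.073).

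The number of calls here depended on the fit. DESeq2 called 6 of the 44 genes lower and 0 higher (0.833% and 1.49% of all genes), and edgeR without the low-count filter 5 lower. The offset fit called 13 lower and 1 higher (2.94% and 4.25% of all genes). The 13 were Cdc6, Mcm2, Gins1, Mcm10, Rfc5, Pola1, Pola2, Rpa1, Rpa2, Fen1, Rrm2, Tyms and Tk1, and the 1 higher was Orc4. Without replicate 2 of WT day 4, 11 genes were lower and 2 were higher, and without either Smad2 knockout library 1 was lower. Trophoblast markers were higher for 2 of 10 genes, with 655 and 832 summed CPM in the Smad3 knockout and none at 0. Primed epiblast markers were lower for 1 of 5, Dnmt3b, with 968 and 978 summed CPM against 1859 and 2026 in WT day 4, and the core pluripotency gene Nanog was lower. Primitive streak and mesoderm markers (186 and 210 summed CPM against 367 and 384) and endoderm markers (397 and 393 against 713 and 639) had no gene past the threshold, and none of these genes was at 0. Their part in the result was not tested.

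In the Smad2 knockout against WT day 4, 7 genes were higher (15.9%) and 6 were lower (13.6%), where 15.4% of all genes were higher and 20.1% were lower. These shares are near or below those of all genes and are no result about replication genes as a group. The median was 0.01 against -0.01 for all genes. Both libraries lay above those of WT day 4 for 14 genes (30.4% of all genes) and below for 13 (33.6% of all genes). The genes called higher were Orc6, Gmnn, Gins1, Gins4, Rfc2, Rpa2 and Tk1, and those called lower were Mcm4, Mcm10, Rfc1, Pola1, Pole and Rrm1. Within the clamp loader and the helicase activators, genes lay on both sides.

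Pola1 encodes the catalytic subunit of polymerase alpha, which extends RNA primers. It had 125 and 85.3 CPM in WT day 4 and 31.99 and 46.8 CPM in the Smad2 knockout, with no overlap (log2 difference -1.41 ± 0.23, edgeR adjusted p = 0.00305). Rfc1, the large clamp loader subunit, had 220 and 183 CPM against 92.3 and 126 CPM (log2 difference -0.89 ± 0.18, edgeR adjusted p = 0.00695). Rfc2, a small subunit of the same loader, lay the other way, at 53.4 and 73.8 CPM against 144 and 117 CPM (log2 difference 1.04 ± 0.22, edgeR adjusted p = 0.00733). Gmnn had 77.3 and 65.4 CPM against 112 and 114 CPM (log2 difference 0.66 ± 0.18, edgeR adjusted p = 0.022). Of the helicase subunits, Mcm4 was lower (log2 difference -0.85 ± 0.20, edgeR adjusted p = 0.0112), and Mcm7 (0.00) and Mcm5 (-0.01) had differences near 0.

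Transcript length moved with the direction of these differences. The 19 genes with a mean transcript under 2000 bases had a median log2 difference of 0.54, with 7 higher and 0 lower, and the 25 longer genes had a median of -0.26, with 0 higher and 6 lower. Spearman's rho between difference and length was -0.75 over the 44 genes and -0.68 over 11217 genes with at least 5 CPM, as a description across genes of the same libraries. WT day 4 against day 0 showed the opposite relation, at 0.60 over the 44 genes and 0.63 over all those genes. There the median was -1.0 for the shorter genes (17 lower) and -0.30 for the longer ones (8 lower). In the Smad3 knockout (0.00) and the double knockout (-0.11) the 44 genes showed little relation to length. Spearman's rho with GC content was 0.27 in the Smad3 knockout and 0.04 in the double knockout over the 44 genes. Over the 11217 genes it was 0.38 and 0.17. For the Smad2 knockout it was 0.40 over the 44 genes and 0.45 over the 11217. For WT day 4 against day 0 it was -0.54 and -0.38.

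**Figure D3:**
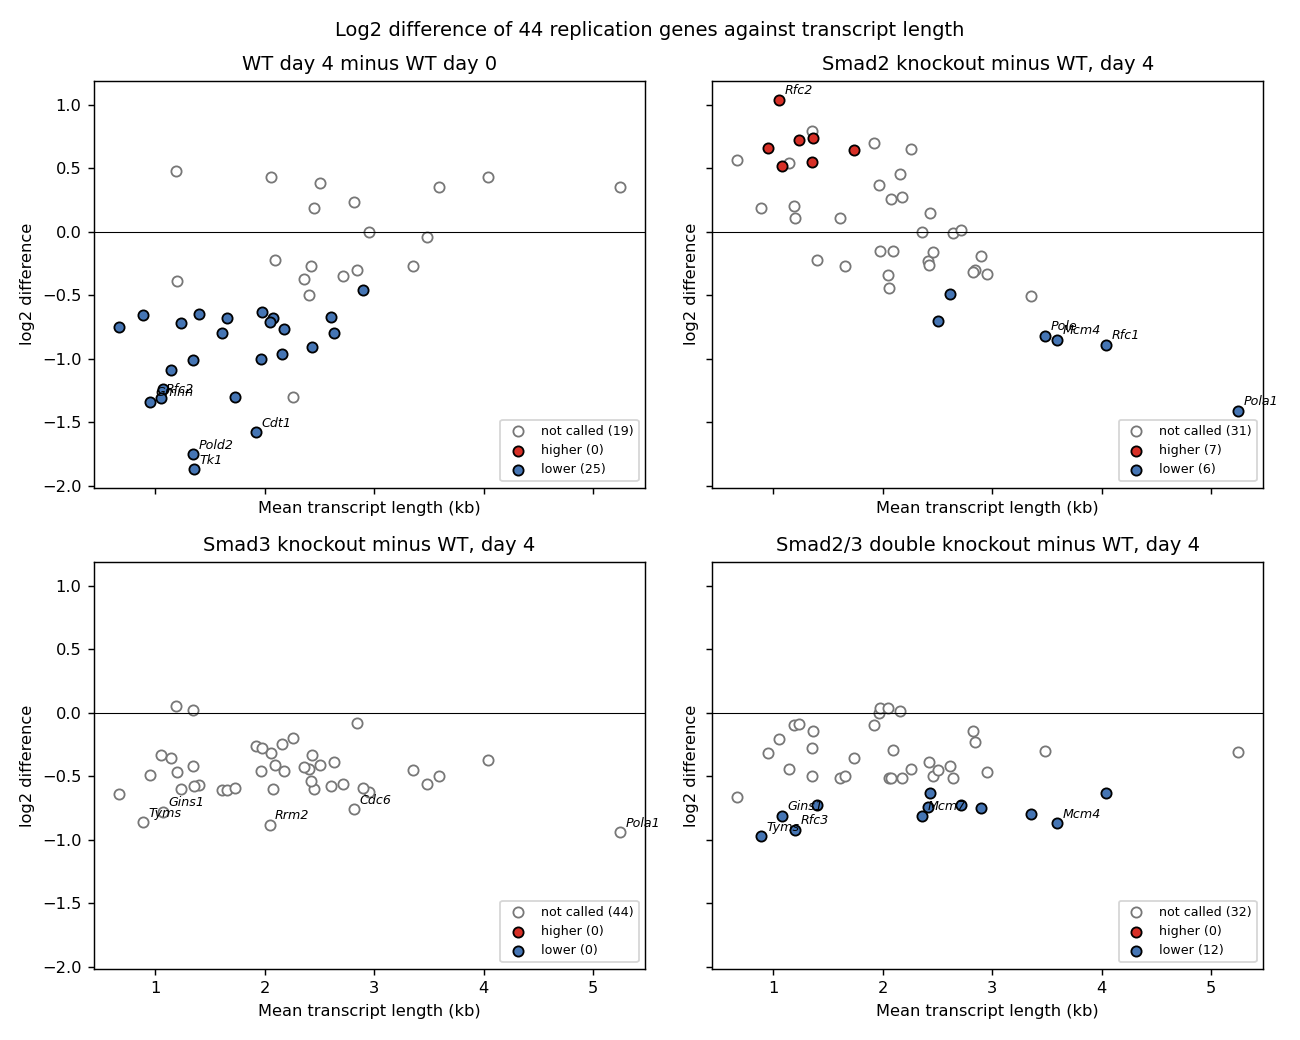
Log2 difference of each of the 44 genes (vertical axis) against its mean transcript length in kb (horizontal axis) in 4 comparisons, with genes called higher in red, lower in blue and not called open. Called genes of the Smad2 knockout are higher at short lengths and lower at long ones.

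In the offset fit, 1 gene was higher in the Smad2 knockout, Rpa2 (log2 difference 0.35), and 2 were lower, Mcm2 (-0.45) and Tyms (-0.41), against 12.7% and 13.9% of all genes. Rpa2 was the only gene of the 13 still called. Pola1 went to -0.28, Rfc1 to -0.12, Mcm4 to -0.16, Rfc2 to 0.34, Gmnn to 0.09 and Tk1 to 0.01 on the log2 scale. Scaling by library totals gave 1 higher and 10 lower, and the TPM scale 0 higher and 21 lower (5.58% and 43% of all genes), with the median of all genes at -0.20 and -0.51. Without replicate 1 of the Smad2 knockout, 1 gene was higher and 2 were lower. Without its replicate 2, 3 were higher, and without any 1 library of the Smad3 or double knockout, 4. The share of counts from ribosomal protein genes was 14.6 and 13.8% in the Smad2 knockout, and the day 0 libraries had 17.0 and 12.6%. The remaining 6 libraries had 6.01 to 8.45%. Trophoblast markers were higher for 10 of 10 genes (2792 and 1939 summed CPM, none at 0) and endoderm markers lower for 8 of 8 (43.0 and 38.1 summed CPM against 713 and 639). Primed epiblast markers were lower for 4 of 5 (468 and 544 summed CPM against 1859 and 2026) and naive pluripotency markers higher for 5 of 10. The Smad2 knockout libraries stood apart from each other in the naive markers (340 and 765 summed CPM) and in the primitive streak and mesoderm markers (168 and 13.3), of which 1 of 6 was lower. The part of these in the replication gene results was not tested.

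The libraries of day 0 and of the Smad2 knockout also shared the transcript length that the authors' RSEM tables give each gene, which weights the annotated isoforms by their estimated share. Pole, the catalytic subunit of polymerase epsilon, had a mean length of 1620 and 2033 bases at day 0 and 1706 and 1830 bases in the Smad2 knockout. The same gene had 4344 and 4545 bases in WT day 4, 4516 and 4345 in the Smad3 knockout and 4909 and 4968 in the double knockout. The 4 short values and the 6 long ones did not overlap. Pold1 followed the same division, with 1148 and 1685 bases at day 0 and 1366 and 1639 in the Smad2 knockout against 2621 to 3011 in the other libraries, from 2688 and 2863 in WT day 4 to 2837 and 2621 in the double knockout. Rrm1 had 1495 and 1688 bases at day 0 and 1600 and 1651 in the Smad2 knockout, and 2809 to 3285 elsewhere. Mcm3 had 1409 and 1933 bases and 1528 and 1749 bases in those groups, and 2665 to 2998 elsewhere.

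Such a division, with all 4 libraries of day 0 and the Smad2 knockout shorter than all 6 others, held for 12 of the 44 genes (27.3%) and for 9.34% of the 19470 genes tested. The reverse, all 4 longer, held for 7 genes (15.9%) and for 11.2% of all genes. The 12 genes were Orc4, Mcm3, Cdc45, Gins2, Mcm10, Rfc3, Prim1, Pold1, Pold2, Pole, Rpa3 and Rrm1. For 5 of the 44 genes (11.4%, against 2.61% of all genes) the mean length was also more than 1.5 times shorter. These groupings of libraries were chosen after the lengths were seen. Since TPM divides by this length, the levels per length of these genes carry the division too.

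**Figure D4:**
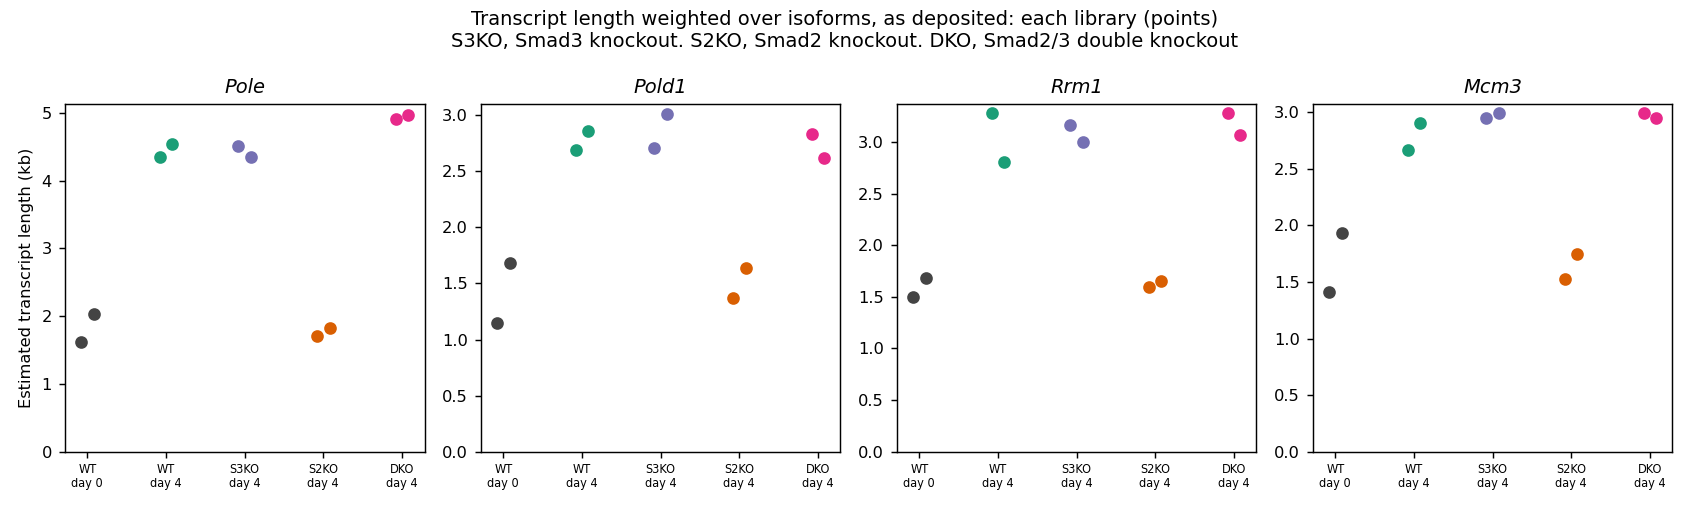
Transcript length in kb, weighted over isoforms as deposited, of Pole, Pold1, Rrm1 and Mcm3 in each library (points), by group. The points of WT day 0 and the Smad2 knockout lie below those of the other groups in each panel.

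Per length, subunits of 1 complex were not at 1 level. On the TPM scale, the ratio of the highest to the lowest MCM2-7 subunit was 2.86 ± 0.19 (SD, n = 2) in WT day 4, 2.59 ± 0.16 in the Smad3 knockout and 2.38 ± 0.10 in the double knockout. Day 0 (4.50 ± 1.20) and the Smad2 knockout (3.86 ± 0.41) had wider ratios, with Mcm3 highest and Mcm4 lowest in all 4 libraries. In the GINS complex Gins3 had the lowest level in all 10 libraries, and the ratio ran from 6.42 ± 0.36 in WT day 4 to 15.4 ± 1.4 at day 0. These ratios were not tested, and Mcm3 and Gins2 are among the genes whose estimated length was shorter at day 0 and in the Smad2 knockout.

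Between the knockouts, which share their libraries with the comparisons above, the Smad2 knockout had 18 genes higher than the Smad3 knockout and none lower, where 15.7% of all genes were higher and 17.9% were lower. Gins1 (1.30 ± 0.16), Orc6 (1.32 ± 0.22), Rfc2 (1.36 ± 0.22) and Tk1 (1.32 ± 0.25) had the largest log2 differences. Over the 44 genes the difference followed transcript length (Spearman's rho -0.74, a description). With the offset these values went to 0.69, 0.80, 0.61 and 0.63, and Rpa2 had the largest, 0.88. With it 24 were higher, 15 of them among the 18, and 1, Orc4, was lower, against 14% and 15.5% of all genes. Library totals gave 10 higher and 5 lower, and the TPM scale 2 higher and 9 lower (3.54% and 44.5% of all genes). The members' medians on those scales were 0.13 and -0.07, and those of all genes -0.35 and -0.57. Leaving out replicate 1 or 2 of the Smad3 knockout left 8 or 9 genes higher.

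The double knockout had 20 genes lower than the Smad2 knockout and 1 higher, where 19.1% of all genes were lower and 20.5% were higher. Gins1 had 42.6 and 41.7 CPM in the Smad2 knockout and 16.1 and 17.4 CPM in the double knockout, with no overlap (log2 difference -1.34 ± 0.16, edgeR adjusted p = 0.00075). With the offset its difference was -0.66 and still called, and Spearman's rho with length was 0.71 over the 44 genes without the offset. Pola1 was the gene called higher (1.1 ± 0.23), and with the offset it was not called and Rrm2 was. The offset gave 23 lower, 15 shared with the 20, against 17.6% of all genes lower and 20.4% higher. Library totals gave 13 lower and 7 higher, and the TPM scale 3 lower and 12 higher (4.7% and 49.4% of all genes), with members' medians of -0.21 and 0.26 and all genes' medians of 0.28 and 0.65. Without either double knockout library 8 were lower.

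Against the Smad3 knockout, the double knockout had 2 genes higher (4.55%) and none lower, where 7.53% of all genes were higher and 8.01% were lower. The median was 0.04. These shares are below those of all genes and are no result about replication genes as a group. The genes were Rrm2 and Cdc6. Rrm2 had 84.7 and 85.3 CPM in the Smad3 knockout and 156 and 166 CPM in the double knockout, with the latter near the WT day 4 level (log2 difference 0.92 ± 0.16, edgeR adjusted p = 0.00591). Cdc6 had 38.1 and 36.4 CPM against 53.6 and 61.2 CPM (log2 difference 0.62 ± 0.15, edgeR adjusted p = 0.0224). Both were also called with the offset, which called 6 genes higher and 6 lower in all, against 15.2% and 13.9% of all genes. Without replicate 1 or 2 of the Smad3 knockout or replicate 2 of the double knockout no gene was called, without replicate 1 of the double knockout 1 was, and without replicate 1 of WT day 4 there were 4.

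The effect of losing Smad2 was then compared between cells with and without Smad3, as the double knockout minus the Smad3 knockout, less the Smad2 knockout minus WT. This interaction was above 0 past the threshold for 4 of the 44 genes (9.09%) and below 0 for none, where 11.3% of all genes were above and 7.52% below, so the count is not above the share of all genes. The genes were Cdc6, Rrm2, Pola1 and Pole. Cdc6 stood at 64.3 and 61.8 CPM in WT day 4, 49.6 and 51.8 CPM in the Smad2 knockout, 38.1 and 36.4 CPM in the Smad3 knockout and 53.6 and 61.2 CPM in the double knockout. Pole stood at 122 and 117 CPM, 53.0 and 81.8 CPM, 82.9 and 79.5 CPM, and 88.3 and 105 CPM in the same order. For both genes each single knockout lay below WT, and the double knockout above the Smad3 knockout.

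The interaction was 0.94 ± 0.21 for Cdc6, 1.26 ± 0.23 for Rrm2 and 2.04 ± 0.33 for Pola1 on the log2 scale, with edgeR adjusted p of 0.0193, 0.0106 and 0.00732. With the offset they were 0.61, 1.17 and 0.88 and all 3 were called, and Orc4 was called below 0, against 8.94% of all genes above and 7.38% below. Pole had 1.08 ± 0.29 (edgeR adjusted p = 0.0351), which with the offset went to 0.56 and was not called. On the centred TPM scale Pole's value was -0.51. Without replicate 1 or 2 of the Smad3 knockout 1 or 0 genes were above, without replicate 1 or 2 of the double knockout 2 or 1, and without replicate 2 of WT day 4 or of the Smad2 knockout 7. Without replicate 1 or 2 of WT day 4, 3 or 9 genes were below.

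**Figure D5:**
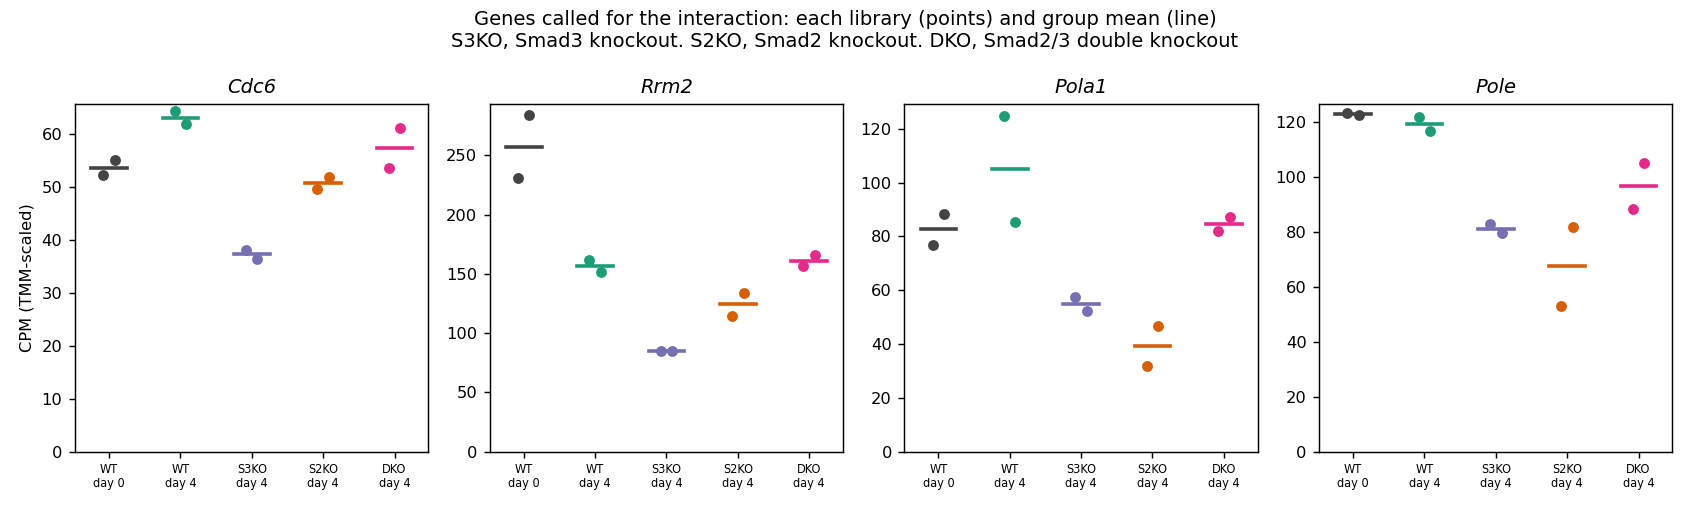
CPM of Cdc6, Rrm2, Pola1 and Pole in each library (points) with the group mean (line), by group on the horizontal axis. For each gene the Smad3 knockout points lie below those of WT day 4, and the double knockout points lie above those of the Smad3 knockout.

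Genes around the replication machinery were read in 4 further lists. In the double knockout against WT day 4, 7 of 16 other nucleotide synthesis genes were lower (43.8%) and 1 was higher (6.25%), against 12.3% and 10.8% of all genes. Dut, which removes dUTP, had 180 and 160 CPM in WT day 4 and 45.4 and 48.4 CPM in the double knockout (log2 difference -1.86 ± 0.15, edgeR adjusted p = 9.04e-05). Shmt1 (-1.22), a serine hydroxymethyltransferase of folate metabolism, was lower, and Rrm2b (1.15), the alternative ribonucleotide reductase subunit, was higher. Dut was also the only gene of these lists called in the Smad3 knockout, at 87.8 and 92.1 CPM (log2 difference -0.92 ± 0.15, edgeR adjusted p = 0.0389). Of 30 other replisome and fork genes 5 were lower (16.7%) and 1, Asf1b (0.66), was higher (3.33%) in the double knockout. This share lower is near the 12.3% of all genes. Rnaseh2a (-0.86), the chromatin assembly gene Chaf1b (-0.82) and Wdhd1 (-0.80) were among the lower genes. None of 20 G2/M genes passed in that comparison, with a median of -0.20.

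Of 24 genes for S-phase kinases and E2F control, 4 were higher and 3 were lower in the double knockout, where 10.8% of all genes were higher and 12.3% were lower, so the share lower is near that of all genes. Cdkn1c and Cdkn1a encode inhibitors of cyclin-dependent kinases and were higher (2.02 ± 0.35 and 1.11 ± 0.22), as was Rb1 (1.13 ± 0.23), which encodes a repressor of E2F activity. Cdkn1c had 8.90 and 15.9 CPM in WT day 4 and 54.4 and 46.0 CPM in the double knockout, with no overlap. The 3 lower genes were the cyclin gene Ccne1 (-0.72), E2f3 (-0.60) and E2f6 (-0.57). In the Smad2 knockout 2 of the 24 were higher (8.33%) and 7 were lower (29.2%), against 15.4% and 20.1% of all genes. E2f1 (0.95) and Cdkn1a (1.08) were higher there, and E2f3 (-1.12), E2f7 (-1.09) and E2f8 (-1.07) were among the lower genes. E2f7 and E2f8 encode the atypical E2F repressors. In WT cells from day 0 to day 4, 7 rose (29.2%) and 5 fell (20.8%), against 28.9% and 23.2% of all genes. These shares are near those of all genes. E2f1 (-1.62) and E2f2 (-1.48) were among those that fell, and E2f3 (1.68), Ccne2 (1.57) and Rb1 (1.42) among those that rose. The values of these lists are from the fit without the offset. Differences in the Smad2 knockout and from day 0 to day 4 followed transcript length over 11217 genes (Spearman's rho -0.68 and 0.63).

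Calls were also counted by promoter match. In the double knockout against WT day 4, 5 of the 14 genes with an E2F match were lower (median -0.50). So were 5 of the 22 without one (median -0.46) and 2 of the 8 with no window, against 12.3% of all genes. From day 0 to day 4 in WT cells, 5 of 14 genes with a match fell (median -0.43) and 14 of 22 without one (median -0.68). With no window 6 of 8 fell (median -0.98), and 23.2% of all genes did. In the Smad2 against the Smad3 knockout, 2 of 14 with a match were higher (median 0.41) and 12 of 22 without one (median 0.64). With no window 4 of 8 were higher (median 0.83), and 15.7% of all genes were. The share of genes with a match is near that of all genes there. These shares were not tested against each other.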

How the data were processed

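RNA-seq of 10 libraries (5 groups of 2) was used, and 14 chromatin immunoprecipitation samples were not analysed here. The authors deposited RSEM tables per library with expected counts, which need not be whole numbers, and TPM, which divides by an isoform-weighted transcript length. The submitters' processing notes name STAR, RSEM, Bowtie2, FastQC 0.11.5, HOMER and mm10, with no role or order. The annotation release and the strand of counting are not given in the sources used here. Gene identifiers were matched to GENCODE M21 (53274 of 53379). Of all genes, 20602 had no count.

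Expected counts were rounded (12.2 to 14.6% of values were not whole) before edgeR 4.0.16 (R 4.3.3) was fitted, with TMM scaling, filterByExpr (19470 genes kept) and a quasi-likelihood F test over all 10 libraries with 5 groups and 5 residual degrees of freedom. P-values were Benjamini-Hochberg adjusted over all genes kept, with a threshold of 0.05. The biological coefficient of variation was 0.248. CPM values use TMM-scaled totals. Alternatives were DESeq2 1.42.0, limma 3.58.1 on log2(TPM + 1), other scalings and filters, and an offset for length and GC content (natural splines with 5 degrees of freedom). Further alternatives were a replicate block, a submission block, and omission of each library. The submission block divides the libraries by a code in the names of the deposited tables, which the labels do not call a batch. A fold on the log2(TPM + 1) scale understates changes of low genes. The edgeR fit and the offset were run on simulated counts, without and with a length bias in the Smad2 knockout libraries. Only the Smad2 knockout against WT was read there, and no GC bias was simulated. Those runs therefore do not test the other comparisons.

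The members and lists were chosen with earlier results of these data known. Genes named were the members, by role, and from the other lists those past the threshold with the largest differences. The estimated lengths and the centred TPM fit were examined after the data were seen.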

Additional observations from a re-analysis of the deposited data

Results flagged for a closer look

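The effect of losing Smad2 differed between cells lacking Smad3 and WT cells, by the test of the interaction, for 4 of 44 replication genes (9.09%), below the 11.3% of all genes called in that direction, so it is no finding about replication genes as a group. The interaction on the log2 scale was 0.94 for Cdc6 (edgeR adjusted p = 0.0193), 2.04 for Pola1 (edgeR adjusted p = 0.00732), 1.08 for Pole (edgeR adjusted p = 0.0351) and 1.26 for Rrm2 (edgeR adjusted p = 0.0106). All 4 have a mean transcript of over 2000 bases, and the interaction followed length over the 44 genes (Spearman's rho 0.68, a description). With the length and GC offset Cdc6, Pola1 and Rrm2 were still called, at 0.61, 0.88 and 1.17, and Pole was not, at 0.56.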

How the results depend on the processing

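Counts of members called are given as higher and lower. The cause of each shift was not tested, apart from fits on fewer samples or genes. With 2 libraries a group, single calls near the threshold are fragile. Day 4 against day 0 in WT (0 and 25) gave 7 and 13 with library totals, 13 lower in the compared groups alone, 11 and 9 with log2(TPM + 1) and with log2(TPM + 0.1), 10 and 8 without the TPM filter, and 1 higher with the length and GC offset, with or without the replicate block. Leaving out 1 library gave 0 to 5 higher and 18 to 27 lower. The Smad2 knockout against WT (7 and 6) gave 1 and 10 with library totals, 11 higher with the submission block, 0 and 1 in the compared groups alone, 0 and 21 with either TPM pseudocount, 0 and 20 without the TPM filter, 1 and 2 with the offset, 2 higher with the offset and replicate block, and 12 higher on the centred TPM scale, and 1 to 9 higher and 2 to 8 lower without 1 library. The Smad3 knockout (0 and 0) gave 5 lower without the low-count filter, 1 with the stricter filter, 3 with the submission block, 6 with DESeq2, 1 and 13 with the offset, 1 and 12 with the offset and replicate block, and 0 to 2 higher and 0 to 11 lower without 1 library. The double knockout (0 and 12) gave 3 lower in the compared groups alone, 5 with either TPM pseudocount, 4 without the TPM filter, 20 with the offset, 19 with the offset and replicate block, and 0 to 1 higher and 1 to 16 lower without 1 library.

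The Smad2 against the Smad3 knockout (18 and 0 members) gave 10 and 5 with library totals, 1 lower with the stricter filter, 2 and 9 on each TPM scale, 1 lower with the offset, with or without the replicate block, and 8 to 27 higher and 0 to 2 lower without 1 library. The double against the Smad2 knockout (1 and 20) gave 7 and 13 with library totals, 12 and 3 with either TPM pseudocount, 11 and 3 without the TPM filter, and 1 to 2 higher and 8 to 25 lower without 1 library. The double against the Smad3 knockout (2 and 0) gave 1 higher without the low-count filter, 1 lower with the submission block, 6 and 7 in the compared groups alone, 6 and 6 with the offset, 7 and 7 with the offset and replicate block, and 0 to 4 higher and 0 to 1 lower without 1 library. The interaction (4 and 0 members) gave 3 lower without the low-count filter, 2 lower with the submission block and with DESeq2, 18 and 1 with log2(TPM + 1), 17 and 1 with log2(TPM + 0.1), 14 higher without the TPM filter, 1 lower with the offset, with or without the replicate block, 3 lower on the centred TPM scale, and 0 to 7 higher and 0 to 9 lower without 1 library.

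The labels do not say whether libraries with the same replicate number belong together. Deviations of same-numbered libraries correlated at 0.11 to 0.51 among 4 groups and at -0.18 to -0.04 with the double knockout. The value of 0.51 was that of WT day 4 with the Smad3 knockout. With the replicate block alone, members gave 0 and 26, 9 and 6, 0 and 0, 0 and 13, 19 and 0, 1 and 21, 2 and 0, and 4 and 0 in the order above.

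Values that changed sign with log2(TPM + 1), and within 0.02 of it on the other TPM fits, were for day 4 against day 0 Orc6 0.10, Mcm5 0.03, Mcm6 0.38, Mcm7 0.76 (0.77 with + 0.1), Pcna 0.45, Prim1 0.01, Prim2 0.20 (0.21), Pole2 0.11, Rpa3 0.09, Fen1 0.03, Rrm2 0.28 and Tyms 0.28. For the Smad2 knockout against WT they were Gmnn -0.06, Mcm7 -1.04, Gins1 -0.17, Gins4 -0.15, Rpa2 -0.08 and Tyms -0.50, and against the Smad3 knockout Cdc6 -0.27 (-0.29), Mcm7 -0.69, Prim1 -0.03 (-0.04), Rpa1 -0.44, Fen1 -0.04 and Rrm2 -0.41. For the double against the Smad2 knockout they were Orc6 0.09, Mcm4 0.89 (0.91), Mcm6 0.36, Mcm7 0.36, Gins4 0.05 (0.06), Pcna 0.43 (0.44), Prim1 0.24 (0.25), Rpa1 0.33 (0.34) and Fen1 0.09, and for the interaction Mcm7 0.71 (0.72). On the centred TPM scale Mcm3 was 0.60, Mcm10 0.32, Pole 0.57 and Rrm1 0.28 in the Smad2 knockout against WT, and Pole -0.51 in the interaction. With the offset, Pola1 was -1.14, Rfc1 -0.55, Cdc6 -0.14 and Rrm1 -0.10 for day 4 against day 0, of which Pola1 and Rfc1 were called lower. Between knockouts, Rfc1 turned from 0.25 to -0.35 (double against Smad2), and Orc4 from 0.15 to -0.29 and Pola1 from -0.48 to 0.42 (Smad2 against Smad3), each called. Signs of uncalled values not named here also turned. For day 4 against day 0, Mcm4 was -0.53 (-0.54 with the replicate block) and Tyms 0.14, and Tyms was -0.41 for the Smad2 knockout against WT.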
